A study of Homo sapiens with 9 samples.

Results

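The nuclear genes that encode the proteins of the mitochondrial ribosome were followed in MEC1 cells cultured in 2D and after 3D bioprinting. Members were chosen by symbol alone, as MRPL or MRPS followed by a number and, for some, a letter from A to C. This gave 78 of the 59050 gene symbols in the count table, and all 78 were among the 13463 genes retained for testing. MEC1 is an established CLL (chronic lymphocytic leukemia) B cell line, and every sample was made from it. The 3 groups were cells grown in 2D, cells printed in a hydrogel scaffold and harvested at day 7 (3D_7d), and scaffolds harvested at day 14 (3D_14d), with 3 samples each. RNA of the scaffolds was isolated with TRIzol, DNase and a column, and RNA of the 2D cells with the column kit alone, so that culture and extraction cannot be told apart between 2D and 3D. Nothing states that the replicates came from separate cultures, and the p-values then measure only the spread between these samples, which may be technical.

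Mitochondria keep their own ribosome, which translates the few mRNAs encoded by mitochondrial DNA, all of them for membrane proteins of oxidative phosphorylation. Its rRNAs are made inside the organelle, whereas its proteins are encoded in the nucleus, translated in the cytosol and imported. MRPL proteins belong to the large subunit, where peptide bonds are formed, and MRPS proteins to the small subunit, which reads the mRNA. Despite their symbols, MRPS30 and MRPS18A lie in the large subunit, and MRPS36 is a component of the 2-oxoglutarate dehydrogenase complex, so it is given apart. Many members have a counterpart in the bacterial ribosome, and the others were gained by the mitochondrial ribosome.

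Members lay on 21 chromosomes and had no shared position, so the sequence before their starts is shown first, as a feature that the choice by symbol did not use. RefSeq promoter windows of GRCh38.p14, with 250 bases before and 50 after each start, were found for 69 members as 85 windows, and 9 members had none. Short letter patterns known from promoters of mitochondrial genes were searched on both strands. The ETS pattern CCGGAAG was in 33 member windows, or 38.8%, against 10.3% of all 35116 windows and 17.8% of the 13687 windows of tested genes. The YY1 pattern AAGATGGC was in 23 member windows, or 27.1%, against 2.89% of all windows and 5.08% of those of tested genes. The NRF1 pattern GCATGCGC, in 7.06% of member windows, and the E-box CACGTG, in 10.6%, stood nearer to the 5.03% and 9.63% of tested genes. At least 1 of the ETS and YY1 patterns was in 46 windows, or 54.1%, against 21.7% of tested genes. These matches describe letters in a window and do not show binding.

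Of 24 YY1 matches, 15 lay within the first 30 bases after the start, while 31 of 45 ETS matches lay in the 100 bases before it. Windows of 1 gene can overlap and hold the same site, and these matches were 22 distinct YY1 sites in 21 members and 40 distinct ETS sites in 30 members. The 100 bases before the start are printed below for 6 members whose values are described in the results, with ETS or NRF1 matches in capitals. They show the ETS pattern at a like distance from the start in members with unlike changes, and 1 member without any of the patterns. 
MRPS10 (chr6:42217862-42217961, minus strand): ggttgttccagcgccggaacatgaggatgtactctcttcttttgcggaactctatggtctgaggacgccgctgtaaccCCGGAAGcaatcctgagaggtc
MRPS31 (chr13:40771191-40771290, minus strand): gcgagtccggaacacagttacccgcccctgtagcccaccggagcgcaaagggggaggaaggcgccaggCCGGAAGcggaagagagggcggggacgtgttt
MRPS18A (chr6:43687792-43687891, minus strand): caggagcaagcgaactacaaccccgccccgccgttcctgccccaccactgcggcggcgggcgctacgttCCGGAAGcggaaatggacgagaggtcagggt
MRPL20 (chr1:1407294-1407393, minus strand): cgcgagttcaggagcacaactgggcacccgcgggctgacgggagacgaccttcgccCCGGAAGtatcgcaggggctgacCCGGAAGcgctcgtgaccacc
MRPS18B (chr6:30617740-30617839, plus strand): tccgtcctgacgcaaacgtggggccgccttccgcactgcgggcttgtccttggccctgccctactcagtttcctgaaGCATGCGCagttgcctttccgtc
MRPS6 (chr21:34073478-34073577, plus strand): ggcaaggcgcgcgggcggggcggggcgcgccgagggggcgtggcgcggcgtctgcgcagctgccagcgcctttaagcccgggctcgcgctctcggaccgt

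The members were well expressed in MEC1 cells. Per exonic length and library size (RPKM), the median member stood at 43.3 in 2D, above 87.4% of tested genes. The highest level was that of MRPS34, a small subunit protein without a bacterial counterpart, at 214 ± 21.8 RPKM (SD, n = 3). MRPS18B followed at 147 ± 7.20 and MRPL41 at 143 ± 29.6, and the ranges of these latter 2 members overlapped in 2D. The lowest were MRPS24 at 1.30 ± 0.137, MRPL30 at 4.58 ± 0.475 and MRPS17 at 5.37 ± 0.548 RPKM. No member had fewer than 24 reads in any sample, so counting error was small except for MRPS24.

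Some of these levels are bounded by the annotation. In the exon coordinates of the table, 45 members shared no exonic base with another gene, 13 shared over 25% and 5 over 50% of their bases. MRPS24 shared 81.1% of its exonic bases with the readthrough gene URGCP-MRPS24, which held 0 reads in all samples. The other 4 were MRPS18C with 79.8%, MRPL53 with 72.0%, MRPL12 with 69.5% and MRPS18A with 56.9%. AC139530.3, which covers these bases of MRPL12 on the same strand, also held 0 reads. No read was therefore counted both for MRPS24 or MRPL12 and for that partner. The counting settings for strand and for reads in shared bases are not given in the sources used here, so the levels of these members are uncertain. Reads in shared bases may be missing from MRPS24, so its rank as the lowest member is uncertain too. Reads of 75 pseudogenes named after members came to 0.119% of the reads of the members. The share was larger for some members. MRPL53P1 held 11.7% as many reads as MRPL53, MRPL45P2 5.13% as many as MRPL45 and MRPS31P4 3.76% as many as MRPS31.

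**Figure D1:**
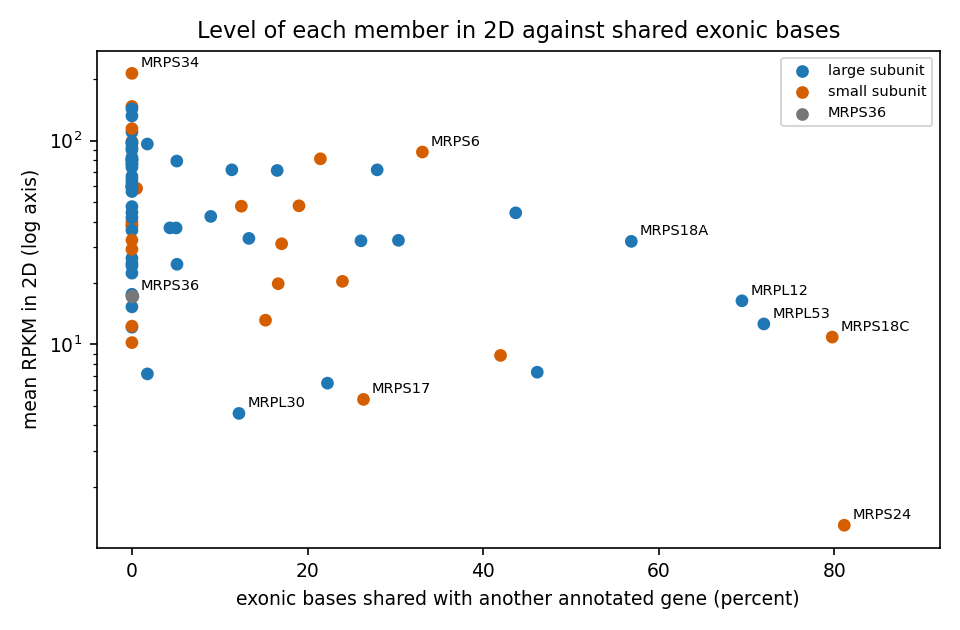
Mean RPKM of each of the 78 members in 2D (n = 3, log axis) against the percent of its exonic bases that another annotated gene also covers; colours give the subunit. MRPS24, with 81.1% of its bases shared and an uncertain level, lies lowest at 1.30 RPKM, and MRPS34, with none shared, highest at 214 RPKM.

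The count table held from 54662799 to 85968686 reads for each sample. B cell markers summed to between 2642 and 3992 CPM (counts scaled to a common library size) in each sample, with CD5 below the filter. Monocyte and epithelial markers stayed at or below 1.28 CPM, NK markers at or below 6.91 and stromal markers at or below 11.4. Some of these sums moved with the groups. B cell markers were between 2642 and 2658 CPM in 2D, below all 3D samples. Within this list MS4A1, CD79A and PAX5 were higher, and CD22 lower, in every 3D sample than in every 2D sample. Mean CD22 was 542 CPM in 2D, 250 in 3D_7d and 333 in 3D_14d, and mean MS4A1 841, 1524 and 1070 CPM. The T cell list rose without overlap through TRAC, from 312 to 357 CPM in 2D, 460 to 489 CPM in 3D_7d and 528 to 718 CPM in 3D_14d, while CD3D, CD3E, CD3G and CD2 did not pass the filter. NK markers summed to between 5.46 and 6.91 CPM in 3D_14d, against 2.00 to 3.43 CPM in all other samples. KLRD1 was between 3.99 and 6.04 CPM in 3D_14d and between 0.363 and 2.47 in the other samples. NKG7 went the other way, between 1.57 and 1.81 CPM in 2D and between 0.0913 and 1.39 in 3D. Stromal markers were lower in every 3D sample, between 2.24 and 7.82 CPM, than in every 2D sample, between 10.1 and 11.4 CPM. The part of these cell markers in the results was not tested. The library 3D_14d replicate 1 stood apart. Between pairs of 3D_14d samples, the mean chi-square of a member's reads was 99.4 to 446, against 12.8 to 44.4 within the other groups, where 1 would be counting error alone. Of the 78 members, 69 were higher in this library than in both other 3D_14d samples and 51 higher than in all other samples. Cytosolic ribosomal protein genes, which encode the proteins of the other ribosome, moved with it, at 3.27% of reads there against 1.88% and 2.26% in the other 3D_14d samples. Its part in the results was not tested beyond the values without it, which are given with each comparison.

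The members' share of all reads overlapped between the cultures. It was 0.715%, 0.671% and 0.652% of reads in the 2D samples, 0.647%, 0.692% and 0.696% in 3D_7d and 0.792%, 0.573% and 0.614% in 3D_14d. After TMM scaling, which sets the bulk of genes level between libraries, the sum was 6270 ± 446 CPM in 2D, 6976 ± 397 in 3D_7d and 7066 ± 1670 in 3D_14d (SD, n = 3). Without 3D_14d replicate 1 the last mean was 6104. The summed RPKM of the large subunit was between 1.97 and 2.30 times that of the small subunit in every sample.

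By contrast, the cytosolic ribosomal protein genes fell from 4.36 ± 0.398% of reads in 2D to 1.72 ± 0.0876% in 3D_7d, without overlap. Genes encoded in mitochondrial DNA took 2.65 ± 0.302% of reads in 2D, 1.57 ± 0.112% in 3D_7d and 2.24 ± 0.597% in 3D_14d. In bulk samples, fewer cells of a kind and less RNA per cell cannot be told apart.

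**Figure D2:**
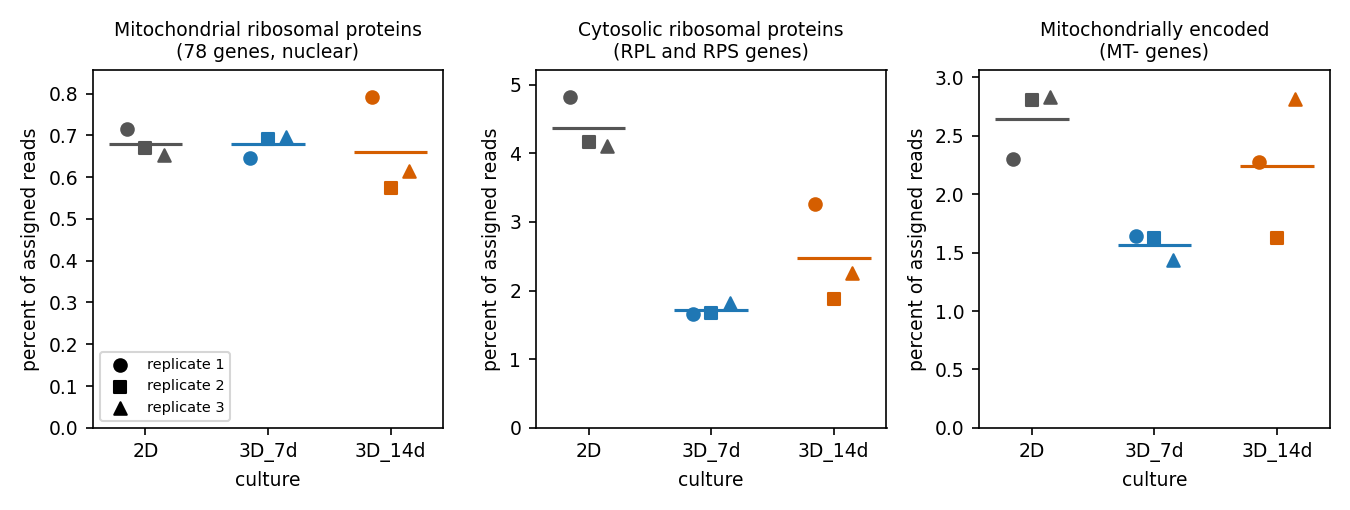
Percent of assigned reads taken by the 78 mitochondrial ribosomal protein genes (left), cytosolic ribosomal protein genes (middle) and genes of mitochondrial DNA (right) in each of the 9 samples; marker shapes give the replicate number and lines the group means. The left groups overlap, between 0.573% and 0.792%, whereas the middle share is lower in all 3D samples than in all 2D samples.

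The comparison of 3D_7d with 2D sets scaffold culture at day 7 beside 2D culture, for which the labels give no day. In edgeR's quasi-likelihood test over all genes, with an adjusted p (Benjamini-Hochberg) of at most 0.05 as the threshold, 16 members were higher and 4 lower in 3D_7d. Together these were 25.6% of the members, against 43.4% of all tested genes, of which 22.2% were higher and 21.2% lower. The median log2 fold change was 0.09 over the members and -0.0039 over all genes. The samples of both groups did not overlap for 43 members, against 64.6% of all genes. Of the 58 members not called, 54 had a 95% interval within a log2 change of 1 in either direction. Changes were moderate, from 1.36-fold to 2.20-fold among the higher members and from 0.589 to 0.743 of the 2D level among the lower ones, and MRPL49 alone passed a log2 change of 1.

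MRPL49, a large subunit protein without a bacterial counterpart, had 76.0, 89.3 and 75.1 CPM in 2D and 159, 175 and 194 CPM in 3D_7d. Every 3D_7d sample lay well above every 2D sample, and the log2 fold change was 1.14 ± 0.15 (SE, adjusted p = 0.000101). MRPS27, a small subunit protein of the pentatricopeptide repeat family, had 126, 133 and 152 CPM in 2D and 247, 268 and 237 CPM in 3D_7d. The groups were again far apart, with a log2 fold change of 0.87 ± 0.14 (adjusted p = 0.000332). MRPS17, the counterpart of a bacterial protein that binds the small subunit rRNA, had 8.48, 10.3 and 9.97 CPM in 2D and 14.4, 17.9 and 21.8 CPM in 3D_7d. This was a log2 fold change of 0.91 ± 0.19 at a low level (adjusted p = 0.00231), and 26.4% of its exonic bases are shared with AC092647.5, which held few reads.

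MRPL38, another large subunit protein gained by mitochondria, had 77.8, 68.0 and 65.2 CPM in 2D and 117, 112 and 105 CPM in 3D_7d (log2 fold change 0.66 ± 0.15, adjusted p = 0.00352). MRPL15, whose bacterial counterpart is a core large subunit protein, had 91.0, 85.6 and 77.6 CPM in 2D and 119, 151 and 141 CPM in 3D_7d (log2 fold change 0.70 ± 0.17, adjusted p = 0.00472). Neither gene's groups overlapped. The calls of MRPL49, MRPS27, MRPS17, MRPL38 and MRPL15 held under all 19 alternative settings. The remaining 11 higher members were MRPL4, MRPL18, MRPL19, MRPL28, MRPL30, MRPL35, MRPL37, MRPS6, MRPS10, MRPS11 and MRPS16, with log2 fold changes between 0.44 for MRPL19 and 0.73 for MRPL28.

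The 4 members that fell at day 7 all belong to the large subunit. MRPL55 had 130, 129 and 120 CPM in 2D and 75.2, 75.6 and 72.2 CPM in 3D_7d, which was the largest fall among the called members (log2 fold change -0.76 ± 0.19, adjusted p = 0.00601) and held under all alternatives. MRPL14, a protein of the face between the subunits to which the assembly factor MALSU1 binds, had 139, 119 and 121 CPM in 2D and 79.5, 84.8 and 81.9 CPM in 3D_7d. Its log2 fold change was -0.62 ± 0.17 (adjusted p = 0.0102), and the call was lost when the trend with gene length was removed. MRPL10, which anchors the stalk that recruits translation factors, had 143, 134 and 126 CPM in 2D and 96.2, 103 and 95.2 CPM in 3D_7d (log2 fold change -0.45 ± 0.13, adjusted p = 0.0127). MRPL42 had 118, 119 and 107 CPM in 2D and 81.2, 84.3 and 90.1 CPM in 3D_7d (log2 fold change -0.43 ± 0.14, adjusted p = 0.0242). All 4 genes were lower in each 3D_7d sample than in each 2D sample, but the call of MRPL42 was lost without 2D replicate 1, 2D replicate 2, 3D_7d replicate 1 or 3D_7d replicate 2.

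The balance of the day 7 calls depended on the scaling and on gene length. Members are short, with a median of 1633 exonic bases against 3441 for all tested genes. When each library's trend with length was removed, 34 members were higher and 2 lower, or 46.2% called against 45.7% of all genes. The members' median log2 fold change was then 0.36, while all genes shifted to a median of 0.05. Scaling by total reads alone put the median of all genes at -0.16 and gave the members a median of -0.06. It left 11 members higher and 11 lower, or 28.2% called against 42.6% of all genes. Without 2D replicates 1, 2 or 3 the higher members numbered 10, 8 and 6, and without 3D_7d replicate 2 or 3 they numbered 8. Without 3D_14d replicate 1, which is in neither group of this comparison but enters the filter, scaling and shared spread of the fit, 24 were higher and 9 lower. These were 42.3% of the members, against 53.8% of all genes.

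**Figure D3:**
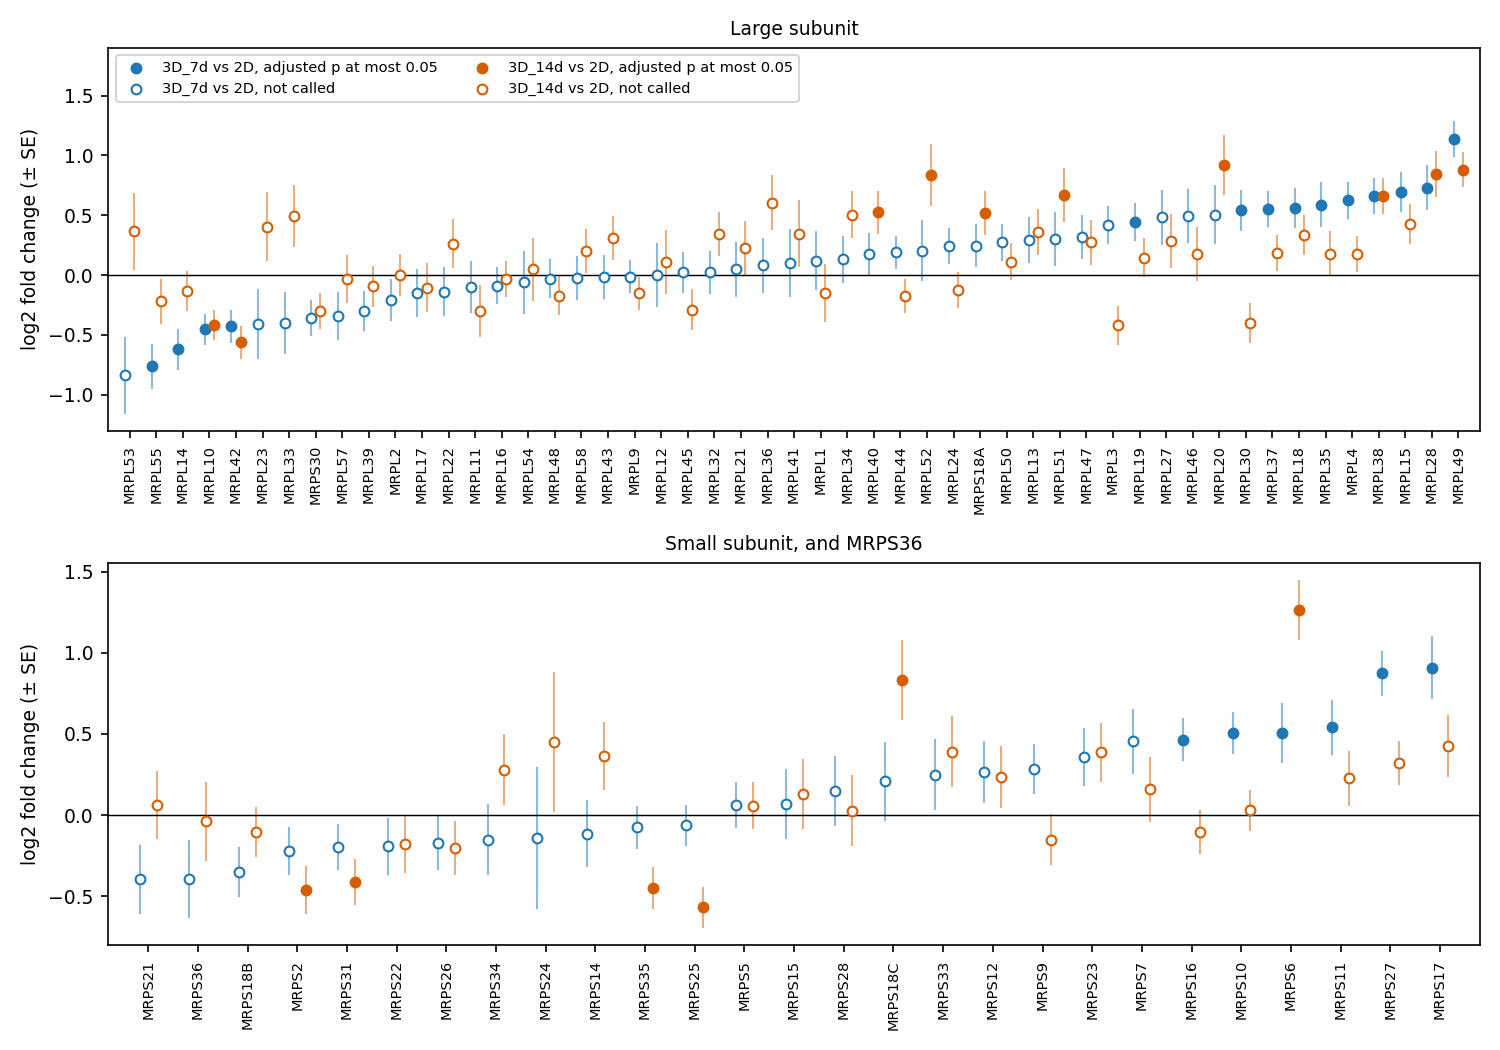
Log2 fold change of each member in 3D_7d (blue) and 3D_14d (orange) against 2D, with bars for ± 1 SE, ordered by the day 7 value within the large subunit (top) and the small subunit with MRPS36 (bottom). Filled points passed an adjusted p of 0.05 in edgeR; MRPL49 at day 7 (1.14) and MRPS6 at day 14 (1.26) are the only points above 1.

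At day 14, 10 members were higher and 6 lower than in 2D by the same test. These were 20.5% of the members, against 36.2% of all genes, of which 19.0% were higher and 17.2% lower. The members' median log2 fold change was 0.17, and that of all genes 0.02. Groups did not overlap for 24 members, against 49.7% of all genes. Of the 62 members not called, 57 had a 95% interval within a log2 change of 1. This comparison shares its 2D samples with that at day 7, so the values are given side by side without a count of what they have in common. 

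MRPS6, the small subunit counterpart of a bacterial protein that pairs with the counterpart of MRPS18C, changed most. It had 85.2, 82.0 and 78 CPM in 2D, 114, 123 and 112 CPM in 3D_7d and 265, 158 and 165 CPM in 3D_14d. No group overlapped another, and MRPS6 exceeded its 2D level by 0.51 ± 0.18 on the log2 scale in 3D_7d (adjusted p = 0.0401) and by 1.26 ± 0.19 in 3D_14d (adjusted p = 0.000311). The day 14 call held under all alternatives, the lowest value being 0.99, whereas the day 7 call was lost when any 1 of the 2D or 3D_7d samples was left out, with adjusted p values over all alternatives from 7.08e-05 to 0.169. MRPS6 shares 33.1% of its exonic bases with other genes, with 31.6% under AP000317.2 on the same strand, which held 11 reads over all samples. It shares 18.0% with SLC5A3 on the same strand, which passed no threshold in either comparison (log2 fold change -0.52 ± 0.25 at day 7 and 0.14 ± 0.25 at day 14).

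MRPL49 had 131, 168 and 144 CPM in 3D_14d, above all 2D samples (log2 fold change 0.88 ± 0.15, adjusted p = 0.000717). MRPL38 had 133, 98.2 and 103 CPM (log2 fold change 0.66 ± 0.15, adjusted p = 0.00443). MRPL28, the counterpart of a bacterial large subunit protein, had 156, 136 and 130 CPM in 2D, 218, 238 and 245 CPM in 3D_7d and 334, 242 and 184 CPM in 3D_14d. Its log2 fold changes were 0.73 ± 0.19 (adjusted p = 0.00824) in 3D_7d and 0.85 ± 0.19 (adjusted p = 0.00445) in 3D_14d. The day 14 calls of these 3 genes held under all alternatives, and the day 7 call of MRPL28 was lost without 2D replicate 3 (adjusted p = 0.0561). MRPL28 shares 11.4% of its bases with its neighbour TMEM8A on the same strand, which was also higher at day 14 (log2 fold change 1.46 ± 0.23).

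MRPL20 had 113, 96.6 and 91.6 CPM in 2D and 293, 132 and 145 CPM in 3D_14d, where the first sample added to the change (log2 fold change 0.92 ± 0.25, adjusted p = 0.0118). Without 3D_14d replicate 1 the value was 0.47 and the call held, but it was lost without 2D replicate 2 or 3. The other higher members were MRPL40, MRPL51, MRPL52, MRPS18A and MRPS18C. In MRPL52, with 69.5, 55.6 and 48.9 CPM in 2D and 155, 63.7 and 92.4 CPM in 3D_14d, the groups overlapped, although the test called it.

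The members that fell at day 14 were MRPL10 and MRPL42 of the large and MRPS2, MRPS25, MRPS31 and MRPS35 of the small subunit. MRPS25, a small subunit protein without a bacterial counterpart, had 91.7, 88.7 and 91.7 CPM in 2D, 83.4, 89.0 and 88.0 CPM in 3D_7d and 67.3, 56.9 and 59.4 CPM in 3D_14d. It fell in all 3D_14d samples, with a log2 fold change of -0.57 ± 0.13 (adjusted p = 0.00428) that held under all alternatives. MRPL42 had 70.5, 72.6 and 89.7 CPM (log2 fold change -0.56 ± 0.14, adjusted p = 0.00725), again under all alternatives. MRPL10 had 97.9, 110 and 94.4 CPM (log2 fold change -0.42 ± 0.13, adjusted p = 0.0233). MRPS35 had 109, 114 and 104 CPM in 2D and 79.1, 73.9 and 86.6 CPM in 3D_14d (log2 fold change -0.45 ± 0.13, adjusted p = 0.0182). MRPS2, whose bacterial counterpart joins the small subunit late, had 81.8, 80.8 and 72.7 CPM in 2D and 62.5, 60.9 and 47.5 CPM in 3D_14d (log2 fold change -0.46 ± 0.15, adjusted p = 0.0257). MRPS31 had 52.4, 43.8 and 46 CPM in 2D and 39.1, 32.8 and 35 CPM in 3D_14d (log2 fold change -0.41 ± 0.14, adjusted p = 0.0391), a call kept only without 3D_7d replicate 1 or 3D_14d replicate 1 among the fits that left out 1 sample, with adjusted p values from 0.0131 to 0.142. None of these 6 overlapped with 2D, and the calls of MRPL10, MRPS35 and MRPS2 were lost without 2D replicate 1 or 2, that of MRPS2 also without 3D_14d replicate 3.

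The direction of the day 14 calls changed when 1 library was left out and also when libraries were scaled by total reads alone. Without 3D_14d replicate 1, 6 members were higher and 17 lower, or 29.5% called against 39.8% of all genes. The median log2 fold change of the members was then -0.07 in place of 0.17. Of the higher members described above, MRPL20, MRPL28, MRPL38, MRPL49 and MRPS6 were higher with and without it. Scaling by total reads alone gave 5 higher and 14 lower (24.4% against 36% of all genes), with the median of all genes at -0.18. Removal of the length trend gave 11 higher and 10 lower (26.9% against 38.3%). Leaving out 2D replicate 2 or 3 left 4 higher members, and leaving out 2D replicate 1 or 2 left 2 lower members. Without 2D replicates 1, 2 or 3, 11.5%, 7.69% and 11.5% of the members were called, against 26.9%, 24.7% and 24.3% of all genes. Of the members that share at most 25% of their exonic bases, 6 were higher and 6 lower.

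The comparison of 3D_14d with 3D_7d, in which extraction did not differ, asks what changed in the scaffold over the second week. By the same test, 5 members were higher and 7 lower at day 14. These were 15.4% of the members, against 28.1% of all genes, of which 14.5% were higher and 13.6% lower. The median log2 fold change was 0.03 over the members. Groups did not overlap for 20 members, against 39.3% of all genes. Of the 66 members not called, 61 had a 95% interval within a log2 change of 1.

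The lower members included the 2 largest falls in the family. MRPL30, another protein with a bacterial counterpart, had 20.2, 23.7 and 19.7 CPM in 2D, 29.8, 29.5 and 33.4 CPM in 3D_7d and 13.9, 19.1 and 15.3 CPM in 3D_14d. It was higher at day 7 than in 2D (log2 fold change 0.54 ± 0.17, adjusted p = 0.0207, lost without 2D replicate 1 or 3 or 3D_7d replicate 2 or 3) and then fell by 0.94 ± 0.17 on the log2 scale (adjusted p = 0.00217). MRPL3, a protein at the peptidyl transferase centre, had 157, 143 and 129 CPM in 2D, 150, 217 and 205 CPM in 3D_7d and 113, 96.1 and 111 CPM in 3D_14d. It fell by 0.84 ± 0.16 from day 7 to day 14 (adjusted p = 0.00304), while neither day passed the threshold against 2D (adjusted p = 0.0506 and 0.0577). Both falls held under all alternatives, including that without 3D_14d replicate 1.

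MRPS16, a counterpart of a bacterial assembly protein of the small subunit, had 162, 154 and 143 CPM in 2D, 200, 224 and 210 CPM in 3D_7d and 161, 136 and 130 CPM in 3D_14d. MRPS27 had 166, 188 and 158 CPM in 3D_14d, below all 3D_7d samples and above all 2D samples. The log2 fold changes from day 7 to day 14 were -0.57 ± 0.13 for MRPS16 (adjusted p = 0.00867) and -0.55 ± 0.14 for MRPS27 (adjusted p = 0.0103). For both the call was lost without 3D_7d replicate 2, with adjusted p values just past the threshold. MRPS25 fell by 0.50 ± 0.13 (adjusted p = 0.0117), lost without 3D_7d replicate 2 or 3. MRPS10, with 83.1, 92.2 and 86.7 CPM in 3D_7d and 58.4, 64.8 and 64.9 CPM in 3D_14d (log2 fold change -0.48 ± 0.13, adjusted p = 0.0152, lost without 3D_7d replicate 2 or 3), and MRPL4 (-0.45) were the remaining lower members. The day 7 call of MRPS16 (log2 fold change 0.47 ± 0.13, adjusted p = 0.0139) was lost without any 1 of the 2D samples and without 3D_7d replicate 2 or 3.

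**Figure D4:**
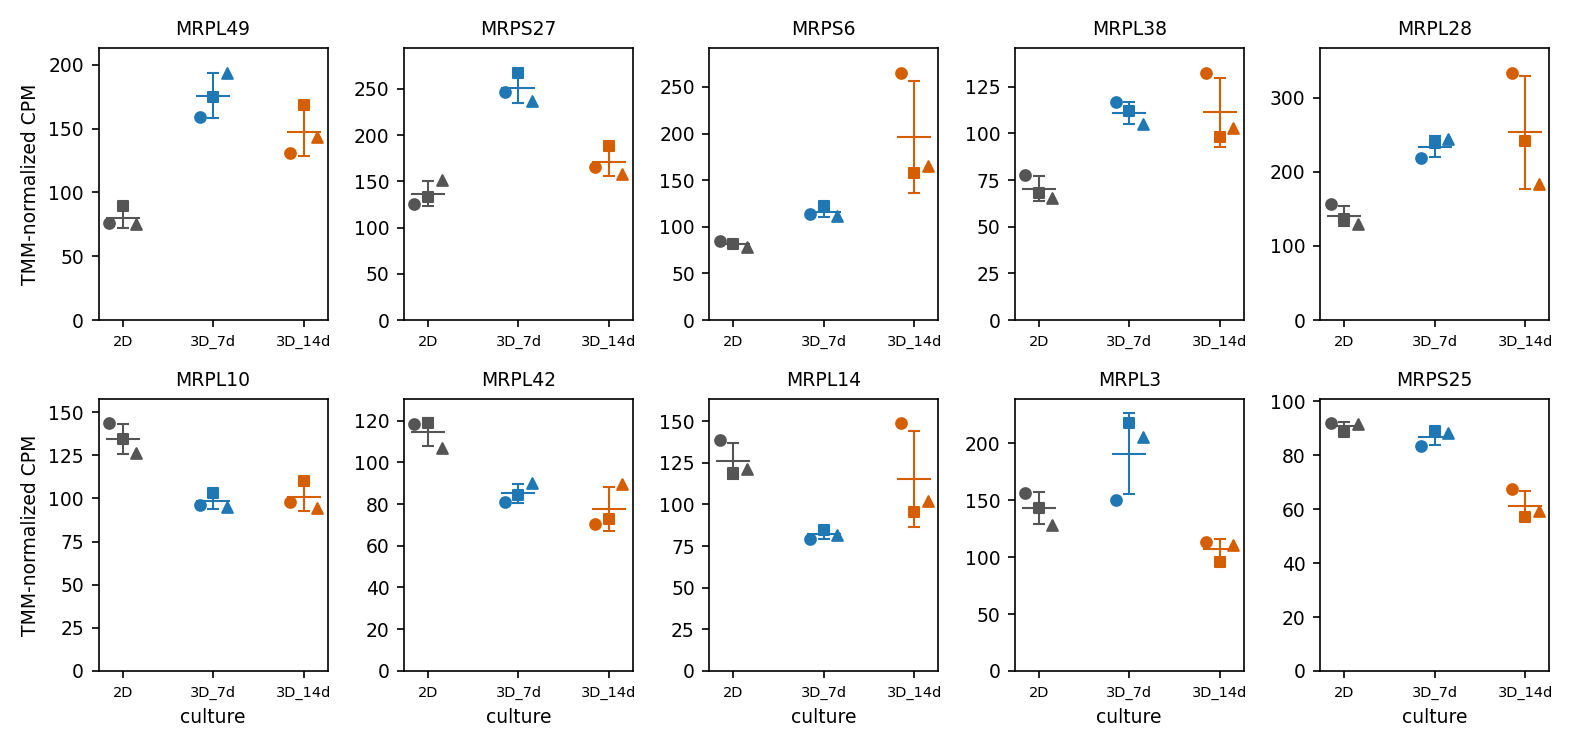
TMM-scaled CPM of 10 members in every sample, with the group mean and SD (n = 3); circles, squares and triangles are replicates 1, 2 and 3. MRPL49, MRPL38, MRPL28 and MRPS6 lie above 2D at both days, MRPL10 and MRPL42 below it at both days, and the circle of 3D_14d stands high in MRPS6, MRPL28, MRPL38 and MRPL14.

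The 5 members that were higher at day 14 than at day 7 were MRPL53, MRPL33, MRPS6, MRPL55 and MRPL14. MRPL53 had 7.57, 6.36 and 5.08 CPM in 2D, 3.79, 2.96 and 3.88 CPM in 3D_7d and 11.2, 4.28 and 8.97 CPM in 3D_14d. Its log2 fold change of 1.20 ± 0.33 was the largest of the 3D comparison (adjusted p = 0.0164) and rests on a low level in a gene that shares 72.0% of its bases with AC005041.5 on the other strand. The value without 3D_7d replicate 2 missed the threshold. MRPL33 had 29.9, 29.0 and 34.4 CPM in 3D_7d and 75.6, 31 and 66.7 CPM in 3D_14d, so that its groups overlapped (log2 fold change 0.89 ± 0.26, adjusted p = 0.0236, lost without 3D_7d replicate 1 or 2 or 3D_14d replicate 1 or 3).

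MRPS6 rose by 0.76 ± 0.18 from day 7 to day 14 (adjusted p = 0.00994), with no overlap and with the call kept in each fit that left out 1 sample. MRPL14 had 149, 95.7 and 102 CPM in 3D_14d (log2 fold change 0.49 ± 0.17, adjusted p = 0.0457), and MRPL55 had 148, 96.4 and 81.7 CPM (log2 fold change 0.55 ± 0.19, adjusted p = 0.0464). Both were close to the threshold and were lost without any 1 of the 2D or 3D_7d samples or without 3D_14d replicate 1. MRPS6, MRPL33, MRPL53, MRPL14 and MRPL55 have between 503 and 1588 exonic bases and none was called after the trend with length was removed.

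With that trend removed, 0 members were higher at day 14 than at day 7, 0 of them also at an unadjusted p of 0.05. The 29 lower members were 37.2% of the members, against 29% of all genes called in either direction. The median was -0.26, against -0.06 for all genes. Without 3D_14d replicate 1, 2 members were higher and 18 lower (25.6% against 28.4% of all genes), with a median of -0.19. Without 3D_14d replicate 2, 12 were higher, with 23.1% of the members called in either direction against 32.4% of all genes. Leaving out 3D_7d replicate 1, 2 or 3 left 2, 1 and 3 higher, and the lower members numbered 2 without 3D_7d replicate 2 and 4 without 3D_7d replicate 3. In either direction, these 3 fits called 14.1%, 3.85% and 8.97% of the members, against 24.4%, 17.1% and 18% of all genes. Scaling by total reads alone gave 5 higher and 12 lower (21.8% against 27.2% of all genes). Without each of the 2D samples, which enter only the filter, scaling and spread of this comparison, 3 were higher. Each of these fits called 11.5% of the members, against 24.4%, 23.6% and 24.9% of all genes.

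By subunit, 10 of the 51 large subunit members were higher and 4 lower at day 7 (median log2 fold change 0.10), and 6 of the 26 small subunit members were higher and 0 lower, with a median of 0.11. These were 27.5% and 23.1% called, against 43.4% of all genes. In the small subunit 1 member was lower at an unadjusted p of 0.05 in edgeR, and DESeq2 also called 0 lower, while 2 were called lower without 3D_14d replicate 1. At day 14 the large subunit had 8 higher and 2 lower (median 0.18) and the small subunit 2 higher and 4 lower (median 0.10). These were 19.6% and 23.1%, against 36.2% of all genes. From day 7 to day 14 there were 4 higher and 3 lower in the large subunit, and 1 higher and 4 lower in the small. These were 13.7% and 19.2%, against 28.1% of all genes. The 46 members with a bacterial counterpart had 12 higher and 3 lower at day 7 (32.6%, median 0.14) and 4 higher and 2 lower at day 14 (13%, median 0.17). The 31 members gained by mitochondria had 4 higher and 1 lower at day 7 (16.1%, median -0.02) and 6 higher and 4 lower at day 14 (32.3%, median 0.17). All these shares lay below those of all genes. No difference between these classes was tested.

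The stalk of the large subunit, where elongation factors bind, is built from MRPL10, MRPL11 and several copies of MRPL12. Unlike MRPL10, MRPL11 passed no threshold, with 116, 108 and 104 CPM in 2D, 95, 99.9 and 110 CPM in 3D_7d and 129, 71.9 and 64.7 CPM in 3D_14d. Both 3D_14d samples other than replicate 1 lay below all other samples, and without replicate 1 MRPL11 was called lower at day 14. MRPL12 had between 10.3 and 24.8 CPM in all samples, with a day 7 log2 fold change of -0.00050 and a 95% interval from -0.58 to 0.57. 

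The paralogs MRPS18A, MRPS18B and MRPS18C descend from 1 bacterial protein and take different places in the ribosome. MRPS18B had 216, 205 and 196 CPM in 2D and 145, 163 and 175 CPM in 3D_7d, without overlap, but missed the threshold (log2 fold change -0.35 ± 0.15, adjusted p = 0.0804). MRPS18C had 19.2, 17.2 and 16.5 CPM in 2D and 41.6, 18.1 and 34.6 CPM in 3D_14d (log2 fold change 0.83 ± 0.24, adjusted p = 0.0183), with overlapping groups. Its call was lost without 3D_14d replicate 1 or 3 and without 2D replicate 2 or 3. MRPS18A had 38.7, 32.9 and 30.4 CPM in 2D and 58.7, 49.3 and 38.0 CPM in 3D_14d (log2 fold change 0.52 ± 0.18, adjusted p = 0.0393), and this call held in only 4 of the 19 alternatives, with adjusted p values from 0.0103 to 0.189. It was lost without any 1 of the samples except 3D_14d replicate 3. 

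MRPL58, a peptidyl-tRNA hydrolase that frees stalled mitochondrial ribosomes and is also built into the large subunit, stayed between 36 and 62.0 CPM and had log2 fold changes of -0.02 ± 0.19 and 0.20 ± 0.19 against 2D. MRPS30 had 129, 129 and 122 CPM in 2D and 85.7, 110 and 101 CPM in 3D_7d (log2 fold change -0.36 ± 0.15, adjusted p = 0.0721). MRPS36, the dehydrogenase component, had 30.6, 25.7 and 24.1 CPM in 2D and between 18.3 and 22.9 CPM in 3D_7d (log2 fold change -0.39 ± 0.24, adjusted p = 0.208). Neither gene's groups overlapped at day 7, yet neither was called in any comparison.

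The same fit was read for the other genes of mitochondrial translation, from lists by role. Of 17 translation and rescue factors, 6 were higher and 2 lower at day 7 (median log2 fold change 0.33), or 47.1% called against 43.4% of all genes. From day 7 to day 14 there were 1 higher and 8 lower (median -0.35), or 52.9% against 28.1%, with the same counts without 3D_14d replicate 1. GFM1, the mitochondrial elongation factor that moves the ribosome along the mRNA, had 48.5, 53.8 and 55.5 CPM in 2D, 167, 224 and 210 CPM in 3D_7d and 56.9, 86.2 and 106 CPM in 3D_14d. It rose by 1.93 ± 0.21 at day 7 (adjusted p = 2.85e-05) and fell by 1.27 ± 0.20 by day 14 (adjusted p = 0.00113). GFM2, which splits the ribosome after translation, rose by 1.04 ± 0.17 at day 7 (adjusted p = 0.000462). GUF1, a factor related to bacterial LepA, was lower at day 14 than in 2D (log2 fold change -1.05 ± 0.21, adjusted p = 0.00239).

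Of 27 assembly and rRNA modification factors, 26 were tested and MRM2 was not, and 7 were higher and 1 lower at day 7, or 30.8% called against 43.4% of all genes. Among them DHX30, an RNA helicase of mitochondrial RNA granules, rose by 1.03 ± 0.19 and MPV17L2, an assembly factor of the inner membrane, by 1.12 ± 0.21. From day 7 to day 14, 1 was higher and 8 lower (34.6% against 28.1%), or 0 higher and 10 lower without 3D_14d replicate 1, led by FASTKD2, an RNA-binding protein needed for the large subunit rRNA, which fell by 1.09 ± 0.16 (adjusted p = 0.000587). At day 14 against 2D, 3 of these factors were higher and 6 lower (34.6%), and 1 of the 17 translation factors was higher and 3 lower (23.5%), against 36.2% of all genes.

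Of the 5 ribosomal proteins without an MRP symbol, 0 were called at day 7 by edgeR or DESeq2, and 1 passed an unadjusted p of 0.05 in either tool. DAP3, the GTP-binding protein of the small subunit, had 132, 124 and 124 CPM in 2D, 141, 174 and 171 CPM in 3D_7d and 127, 108 and 96.3 CPM in 3D_14d, and fell by 0.56 ± 0.15 from day 7 to day 14 (adjusted p = 0.0138). PTCD3, another small subunit protein, was lower at day 14 than in 2D (log2 fold change -0.64 ± 0.15, adjusted p = 0.00458). Of 6 transcription genes, POLRMT, the mitochondrial RNA polymerase, was higher at day 7 (log2 fold change 0.60 ± 0.19) and at day 14 (0.77 ± 0.19), while TFB2M, its initiation factor, was lower at day 14 (-0.60 ± 0.14).

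Of the 13 mitochondrial mRNAs, which this ribosome translates, 0 were higher and 8 lower at day 7 (median log2 fold change -0.80), and 0 were higher and 7 lower at day 14 (median -0.65), or 61.5% called against 43.4% of all genes and 53.8% against 36.2%, with 0 higher by DESeq2 and 0 higher at an unadjusted p of 0.05. With the length trend removed, 3 were lower at day 7 and 6 at day 14. MT-CO3, which encodes a subunit of cytochrome c oxidase, had 1979, 2248 and 2024 CPM in 2D, 766, 876 and 914 CPM in 3D_7d and 1271, 713 and 1167 CPM in 3D_14d, without overlap between 2D and 3D. MT-RNR1, the rRNA of the small subunit, had 1134, 1309 and 1287 CPM in 2D against 275, 223 and 168 CPM in 3D_7d (log2 fold change -2.49 ± 0.25, adjusted p = 1.99e-05). It was also lower at day 14 (-2.09 ± 0.25, adjusted p = 8.09e-05). MT-RNR2, the rRNA of the large subunit, was not called at day 7 (-0.38 ± 0.19) and was higher at day 14 (0.54 ± 0.19, adjusted p = 0.0387), a call that was lost without 3D_14d replicate 1. These are reads in SMART-Seq libraries, and rRNA amounts were not measured. The 80 tested cytosolic ribosomal protein genes included 67 lower and 3 higher at day 7 (median -1.17), or 87.5% called against 43.4% of all genes. At day 14, 24 were lower (median -0.43), or 30% called against 36.2%, and 65 without 3D_14d replicate 1 (median -0.78). From day 7 to day 14, 38 were higher, or 47.5% called against 28.1%. Their median length was 1357 exonic bases, against 1633 for the members. The difference between the members and these lists was not tested.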

How the data were processed

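RNA of MEC1 cells was sequenced from 3 samples each of 2D, 3D_7d and 3D_14d. The authors made SMART-Seq libraries and sequenced single reads. The submitters' processing notes name Trimmomatic (version 0.39), STAR (version 2.5.3a), featureCounts (version 1.6.4) and GRCh38. The deposited values are raw counts per gene with exon coordinates and lengths, without normalization by the authors. CPM and RPKM were computed here, shared exonic bases from the deposited exon coordinates, and promoter windows were read from RefSeq.

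The expression filter kept the 13463 genes whose CPM passed 1 in 3 samples or more. In R (version 4.3.3), edgeR (version 4.0.16) was used for TMM factors and the quasi-likelihood test, with 1 mean per group over all 9 samples, and p-values were adjusted by Benjamini-Hochberg over all genes. All tests were two-sided. With 3 samples against 3, an exact permutation test of single values could not go below 0.1, so none was run. Pathway lists were written by role. The members and lists were chosen with earlier results of these data known.

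Named by rule were the 5 members of smallest p per comparison and direction among those called, the 3 highest and 3 lowest RPKM in 2D, MRPL10, MRPL11, MRPL12, the MRPS18 paralogs, MRPS30, MRPS36 and MRPL58, and the 2 genes of smallest p per list. Other names were chosen after their values were seen. Alternatives were other scalings, DESeq2 (version 1.42.0), other filters, the replicate block, removal of a loess trend with gene length (span 0.4), and leaving out each sample. The pipeline was tested on simulated data. Intervals of 95% are those of the fitted log2 fold changes.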

Additional observations from a re-analysis of the deposited data

Results flagged for a closer look

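Levels in the scaffold differed between the time points for 12 members, 5 higher and 7 lower, by the test of 3D_14d against 3D_7d in edgeR. The values are log2 fold changes of 3D_14d against 3D_7d, which is the difference between the log2 fold changes against 2D at day 14 and day 7. Both use the same 2D samples, which have no stated day, so an effect of culture at each day was not estimated. MRPL30 (-0.94), MRPL3 (-0.84), MRPS16 (-0.57), MRPS27 (-0.55), MRPS25 (-0.50), MRPS10 (-0.48) and MRPL4 (-0.45) were lower at day 14. MRPL53 (1.20), MRPL33 (0.89), MRPS6 (0.76), MRPL55 (0.55) and MRPL14 (0.49) were higher. Among the latter, MRPL33, MRPL55 and MRPL14 lost the call without 3D_14d replicate 1, and all 5 lost it with the length trend removed. The part of that library and of gene length was not tested further.

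Other genes of the mitochondrial lists passed the same test, and those named by rule are given here. The elongation and ribosome release factors GFM1 (-1.27), GUF1 (-1.20) and GFM2 (-0.91) and the RNA-binding protein LRPPRC (-0.74) were lower at day 14 than at day 7. So were the assembly and rRNA factors FASTKD2 (-1.09), DHX30 (-0.79), MRM1 (-0.74) and MTERF3 (-0.66), the transcription factors TFB2M (-0.80) and MTERF1 (-0.56), and the ribosomal proteins PTCD3 (-0.71) and DAP3 (-0.56). CHCHD1, a small subunit protein (0.79), YBEY, an endonuclease of rRNA processing (0.79), and the mitochondrially encoded MT-ND3 (1.37), MT-RNR2 (0.92) and MT-CO2 (0.49) were higher. Without 3D_14d replicate 1, CHCHD1 and YBEY lost the call and 1 mitochondrial mRNA was called higher in place of 2. With the length trend removed, CHCHD1, YBEY, MT-ND3 and MT-CO2 were not called higher. Groups of 3 samples were too small for a test of single outlying samples.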

How the results depend on the processing

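Of the members' calls at day 7, 6 named members held under all 19 alternatives, as did 6 at day 14 and 2 between the days. With the trend with gene length removed, higher and lower members numbered 34 and 2 at day 7 (median 0.36) and 11 and 10 at day 14. Between the days they numbered 0 and 29 (median -0.26). These were 46.2%, 26.9% and 37.2% of the members, against 45.7%, 38.3% and 29% of all genes. With the replicate block added they numbered 33 and 2 (median 0.37), 10 and 10, and 0 and 29 (median -0.28). That was 44.9%, 25.6% and 37.2% of the members, against 44.8%, 37.4% and 28% of all genes. The removal reversed MRPL58 at day 7 (0.37), MRPL14 between the days (-0.012, also with the block) and, with the block, MRPL41 between the days (-0.49). Total reads alone gave 11 lower at day 7 (median -0.063), 5 higher and 14 lower at day 14, and 12 lower between the days. In either direction it called 28.2%, 24.4% and 21.8% of the members, against 42.6%, 36% and 27.2% of all genes. Without a filter 10 were higher at day 7, 2 lower at day 14 and 4 lower between the days. Here 16.7%, 12.8% and 11.5% of the members were called in either direction. The shares of all 51726 genes then tested were smaller, at 10.6%, 9.05% and 6.84%. A fit of only the 6 samples compared gave 25 higher and 13 lower at day 7, 6 higher at day 14, and 3 higher and 4 lower between the days. In either direction it called 48.7%, 14.1% and 8.97% of the members, against 58.8%, 32.7% and 19.5% of all genes. DESeq2's Wald test called 8 and filterByExpr 3 higher between the days. In either direction they called 21.8% and 11.5% of the members there, against 33.5% and 18.4% of all genes. A minimum log2 fold change of 1 left 1 higher and 0 lower in each comparison. Members sharing at most 25% of exonic bases, chosen after seeing the data, had 6 higher at day 14 and 3 between the days. The causes were not tested.

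Leaving out 1 sample each gave 6 to 24 higher, 3 to 9 lower and a median of -0.033 to 0.14 at day 7, 4 to 14 higher and 2 to 17 lower at day 14, and 1 to 12 higher and 2 to 18 lower between the days. Members called were 14.1% to 42.3% at day 7, 7.69% to 29.5% at day 14 and 3.85% to 25.6% between the days. The shares of all genes were 32.3% to 53.8%, 24.3% to 39.8% and 17.1% to 32.4%. Whether replicate numbers pair the samples is not stated and was not settled here. Deviations of same-numbered samples correlated between -0.10 and 0.185, over 0.1 in 2 of 9 pairs. Those of differently numbered samples correlated between -0.135 and 0.0807, over 0.1 in 0 of 18 pairs. With the replicate block alone, 15 members were higher and 5 lower at day 7, or 25.6% called against 42.8% of all genes. Summed levels were 6791 in 2D by total reads, and 5731 in 2D and 6285 in 3D_7d without MRPS34, MRPL37 and MRPL28. Depth was lowest for MRPS24, with 24 reads in 1 sample. The median SD of a member was 8.73% of its mean in 2D, 7.48% in 3D_7d and 26% in 3D_14d.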
